A study of Mus musculus with 9 samples.

Results

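Acp5, the tartrate-resistant acid phosphatase, and 9 lysosomal cathepsins were followed in neutrophils sorted from skin and from lesions at 2 stages of cutaneous squamous cell carcinoma development. Acp5 was chosen by its values in these same arrays, which were much higher in both lesions than in skin, and the cathepsins (Ctsb, Ctsc, Ctsd, Ctse, Ctsh, Ctsk, Ctsl, Ctss and Ctsz) were chosen by name. These 10 genes, of 34797 gene names on the array, were read by 13 non-control probes. The Acp5 difference between lesion and skin therefore chose the set and is given as a description with no test.

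Cathepsins are proteases of the endosome and lysosome, where an acid pH kept by the vacuolar proton pump activates them and cystatins hold back the cysteine type. Ctsb, Ctsl, Ctsk and Ctss are cysteine endopeptidases, Ctsc, Ctsh and Ctsz trim chain ends, and Ctsd and Ctse are aspartic proteases. Acp5 is an iron-containing phosphatase best known, with Ctsk, from the osteoclast and also made by macrophages. In neutrophils cathepsin C activates the serine proteases of the granules.

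The 9 one-color arrays held Gr-1bright neutrophils sorted to above 98% purity from 4 sites: papilloma on 3 arrays, and tumor, papilloma skin and tumor skin on 2 arrays each. All groups came from female wild-type FVB/N mice given DMBA on the skin at 6 and 13 weeks of age and repeated PMA from week 1 to week 18 to 20, so the skin groups were treated skin around a lesion and no untreated skin was among them. RNA of several mice was pooled for an array, and an array therefore shows no single animal. With 2 or 3 arrays a group, precision was limited, and p-values measure the spread between arrays of pooled mice.

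Values are log2 levels of 1 probe on 1 array from the value table deposited with the series. A pair of columns of this table stood apart. The ranks of papilloma skin 1 followed its own scanner file at rho = 0.587 and that of tumor 2 at 0.923, and those of tumor 1 followed their own file at 0.825 and tumor 2 at 0.946. The other 7 columns followed their own files at 0.930 to 0.980, although papilloma 2 and papilloma 3 were each closest to the file of the other (0.981 and 0.958). In the scanner files, papilloma skin 1, tumor skin 1 and tumor 1 had spike-in slopes of 0.678, 0.876 and 0.894, against 1.04 to 1.06 on the other 6 arrays. The cathepsin calls, and those of most gene lists, are therefore given from 9 columns and again from 7, without papilloma skin 1 and tumor 1. Without these columns papilloma skin and tumor kept 1 array each, and the other groups gave the spread. Which scanner file belongs to which of these columns was not settled, and values within slides and with a slide term rest on the slides of the labelled files. The arrays lay on 3 slides, the first with 1 array of each group, the second with papilloma skin 2, papilloma 2 and tumor 2, and the third with tumor skin 2 and papilloma 3, so values with the slide as a term in the fit are given as well.

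All 13 probes were well above background on all 9 arrays. Acp5 probe A_55_P1997766 read 12.08 and 11.98 in papilloma skin, 10.94 and 11.19 in tumor skin, 14.71, 14.82 and 14.48 in papilloma, and 13.73 and 14.04 in tumor. The lesion arrays all lay above the skin arrays, with papilloma highest and tumor skin lowest, and none of the 4 groups overlapped. Group means with SD were 14.67 (0.17) in papilloma, 13.89 (0.22) in tumor, 12.03 (0.07) in papilloma skin and 11.06 (0.18) in tumor skin. The means were 2.64 apart on the log2 scale, or 6.23-fold, at the papilloma stage and 2.83, or 7.10-fold, at the tumor stage. Fewer cells with the transcript and less transcript per cell cannot be told apart in these bulk samples.

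The other Acp5 probe, A_55_P2037608, read 12.34 and 12.29 in papilloma skin, 11.26 and 11.47 in tumor skin, 14.94, 15.03 and 14.67 in papilloma, and 14.08 and 14.49 in tumor. It kept the order of the groups, again without overlap. Its log2 differences were 2.57 (5.92-fold) at the papilloma stage and 2.92 (7.58-fold) at the tumor stage. Within the slides that held lesion and skin of one stage, the first probe differed by 2.63 and 2.84 for papilloma and by 2.80 for tumor, and the second by 2.60, 2.75 and 2.82. From 7 columns the differences were 2.69 and 2.59 for papilloma and 2.98 and 3.13 for tumor, and with the slide term 2.67, 2.61, 2.75 and 2.81. From the scanner files, after quantile normalization and ComBat, they were 2.93 and 2.86 for papilloma and 3.97 and 4.17 for tumor. Scaled to the 75th percentile they were 4.03 and 4.01 for papilloma, which was 3.37 and 3.35 above the median of all probes, and 3.45 and 3.52 for tumor.

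**Figure D1:**
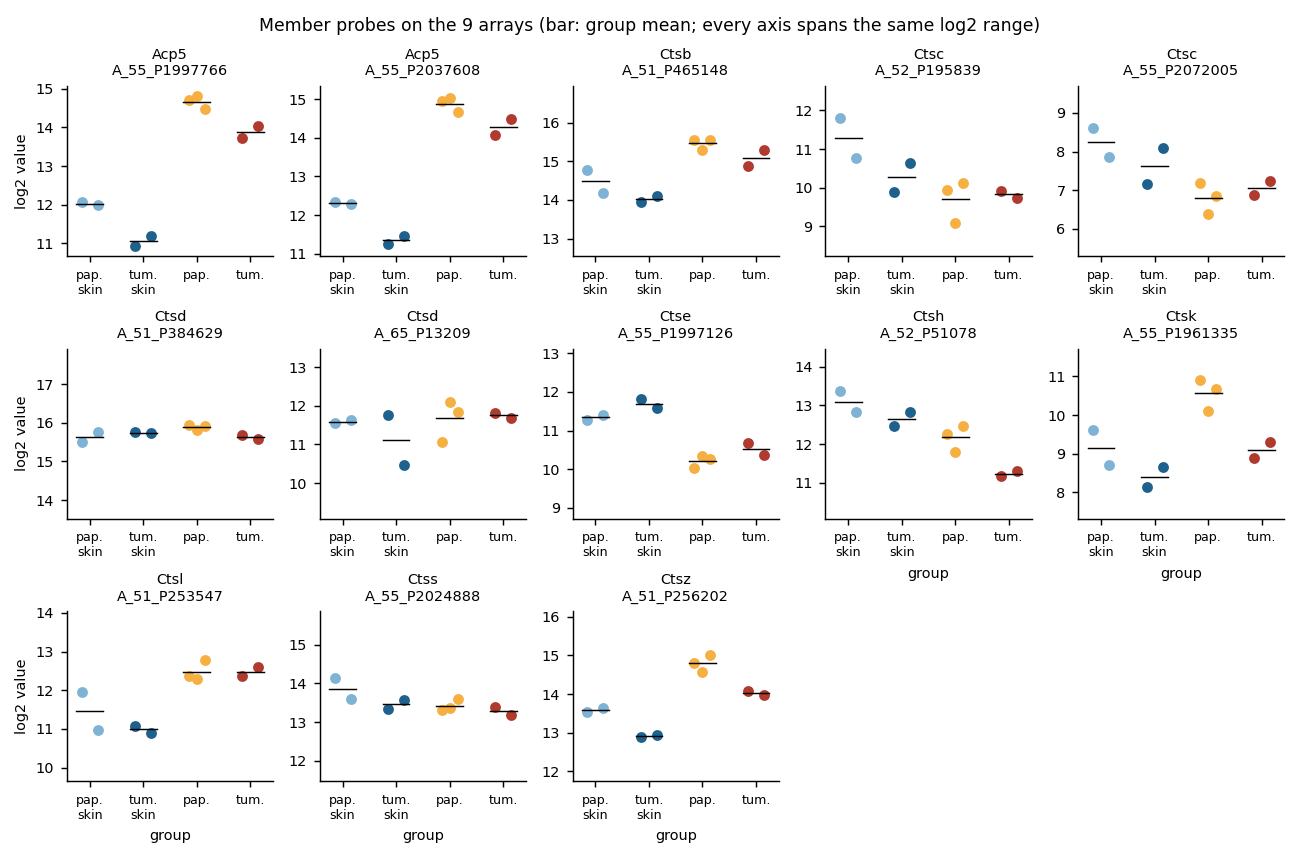
Log2 value of each of the 13 member probes on each of the 9 arrays, with the group mean as a bar and the same span on every axis. The Acp5 probe A_55_P1997766 ran from 10.94 in tumor skin to 14.82 in papilloma, while the Ctsd probe A_51_P384629 stayed between 15.51 and 15.93.

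The cathepsins were read from limma fits over all probes of the table. A probe was called when its limma adjusted p did not exceed 0.05, its log2 fold change reached 1 in either direction and its log2 level averaged 6 or more. In papilloma versus papilloma skin, 2 of the 11 cathepsin probes were called higher (4.2% of 28871 probes at this level were) and 1 was called lower (1.93% of all). In tumor versus tumor skin, 3 were called higher (5.22% of all) and 2 lower (2.91% of all). Without papilloma skin 1 and tumor 1, each of the 11 cathepsin probes kept the sign of its difference at both stages. Papilloma skin and tumor then had 1 array each, so no count of calls is given for this fit. Not all of the calls above were kept, as given by gene below. With the slide term, 1 was called higher and 1 lower at the papilloma stage, and at the tumor stage limma called 0, with 6 at an unadjusted p under 0.05. Over all probes the slide term left 981 and 209 calls, against 1769 and 2346 without it.

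Ctsb, an endopeptidase that can also trim dipeptides, read 14.79 and 14.19 in papilloma skin, 13.94 and 14.11 in tumor skin, 15.54, 15.28 and 15.56 in papilloma, and 14.87 and 15.29 in tumor. At both stages every lesion array lay above every skin array of that stage. In tumor versus tumor skin Ctsb rose by 1.05 (SE 0.23; 2.07-fold; adjusted p in limma 0.0310), with 0.92 within the first slide. At the papilloma stage the log2 difference was 0.97 (SE 0.21; adjusted p in limma 0.0355), just under the fold minimum, with 0.75 and 1.09 within slides. From 7 columns it was called at both stages by limma (1.27, adjusted p = 0.0397, and 1.26, adjusted p = 0.0370), and with the slide term at neither (0.91, adjusted p = 0.168, and 1.18, adjusted p = 0.143). Over all settings the limma adjusted p ran from 0.00391 to 0.470 for papilloma and from 0.00589 to 1.00 for tumor. The tumor call held under 10 of 25 other settings, and of the arrays left out singly it ended without either tumor skin array, without either tumor array and without papilloma 1 or papilloma 3 (0.84 to 1.26).

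Ctsl, an endopeptidase of wide substrate range, read 11.97 and 10.98 in papilloma skin, 11.08 and 10.90 in tumor skin, 12.36, 12.28 and 12.78 in papilloma, and 12.37 and 12.59 in tumor. All 5 lesion arrays lay above all 4 skin arrays, and papilloma skin 1 was the highest of the skin arrays. In tumor versus tumor skin Ctsl rose by 1.49 (SE 0.31; 2.80-fold; adjusted p in limma 0.0248), with 1.29 within the first slide. The papilloma difference was 1.00 (SE 0.28; adjusted p in limma 0.0833), with 0.40 within the first slide and 1.31 within the second. Without papilloma skin 1 and tumor 1 it was 1.497 and was called by limma (adjusted p = 0.0474), and the tumor difference was 1.60 (adjusted p = 0.0378). With the slide term limma called neither (0.92, adjusted p = 0.242, and 1.69, adjusted p = 0.107). Over all settings the limma adjusted p ran from 0.000382 to 0.408 for papilloma and from 0.00106 to 1.00 for tumor. The tumor call held under 13 of 25 settings and ended without any 1 of the 4 tumor-stage arrays (1.37 to 1.60).

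Ctsz, a carboxypeptidase, read 13.52 and 13.64 in papilloma skin, 12.88 and 12.95 in tumor skin, 14.82, 14.57 and 15.003 in papilloma, and 14.08 and 13.99 in tumor. The 4 groups did not overlap and stood in the order papilloma, tumor, papilloma skin, tumor skin, as for Acp5. Ctsz rose by 1.21 in papilloma (SE 0.15; 2.32-fold; adjusted p in limma 0.0039), with 1.29 and 0.93 within slides. It rose by 1.12 in tumor (SE 0.17; 2.17-fold; adjusted p in limma 0.00805), with 1.20 within the first slide. From 7 columns the differences were 1.16 and 1.07, and limma called neither (adjusted p = 0.0608 and 0.0602). With the slide term limma called the papilloma difference (1.14, adjusted p = 0.0385) and not that of tumor (1.26, adjusted p = 0.0775). Over all settings the limma adjusted p ran from 0.000743 to 0.557 and from 0.00367 to 1.00. The calls held under 19 and 14 of 25 settings, and of the arrays left out singly the tumor call ended without tumor 2 (1.17).

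Ctsk, the collagen-cleaving cathepsin of osteoclasts, which fibroblasts also make, read 9.61 and 8.71 in papilloma skin, 8.15 and 8.66 in tumor skin, 10.90, 10.11 and 10.67 in papilloma, and 8.89 and 9.31 in tumor. Papilloma stood above all other arrays, while tumor fell within the span of papilloma skin. Ctsk rose by 1.40 in papilloma (SE 0.33; 2.64-fold; adjusted p in limma 0.0452), with 1.29 and 1.40 within slides. In tumor versus tumor skin the difference was 0.70 (SE 0.36; adjusted p in limma 0.260), with the tumor arrays above the tumor skin arrays. The papilloma difference was 1.85 from 7 columns (adjusted p in limma 0.0699) and 1.27 with the slide term (adjusted p in limma 0.157). Over all settings the limma adjusted p ran from 0.00608 to 0.516, and the call held under 10 of 25. Of the arrays left out singly, it ended without papilloma skin 2 (0.95), papilloma 1 (1.23), papilloma 3 (1.35) and either tumor array (1.40). From the scanner files the difference was 3.80 with an adjusted p in limma of 0.0564.

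The fibroblast markers moved with Ctsk. Their summed level on the log2 scale was 15.34 and 14.31 in papilloma skin, 13.47 and 13.46 in tumor skin, 16.60, 16.46 and 16.46 in papilloma, and 14.06 and 15.32 in tumor. It was highest in papilloma and lowest in tumor skin, as Ctsk was, and both were higher in papilloma skin 1 and tumor 2 than in the other array of the group. Within papilloma and tumor skin the sums of arrays that differed in Ctsk were alike (16.46 and 16.46 in papilloma 2 and 3, 13.47 and 13.46 in tumor skin). Of the 10 genes, 4 were called higher in papilloma (Pdgfrb 3.23, Postn 3.09, Sparc 2.21 and Fbn1 1.41), and in tumor 2 were called higher (Sparc 2.74, Pdgfrb 1.68) and 1 lower (Dcn −1.38). The list median was 1.59 in papilloma and 1.13 in tumor, or 1.56 and 1.41 with the slide term and 2.09 and 1.43 from 7 columns, and 2 and 1 genes were called with the slide term and 6 and 4 from 7 columns, all higher. ComBat of the scanner files gave medians of 3.12 and 2.80, with 7 and 2 called higher. Sparc was the most abundant. Of the defining markers, Pdgfra was well above background on 7 arrays and Pdgfrb and Fbn1 on 8. The part of fibroblast RNA in the Ctsk values was not tested.

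**Figure D2:**
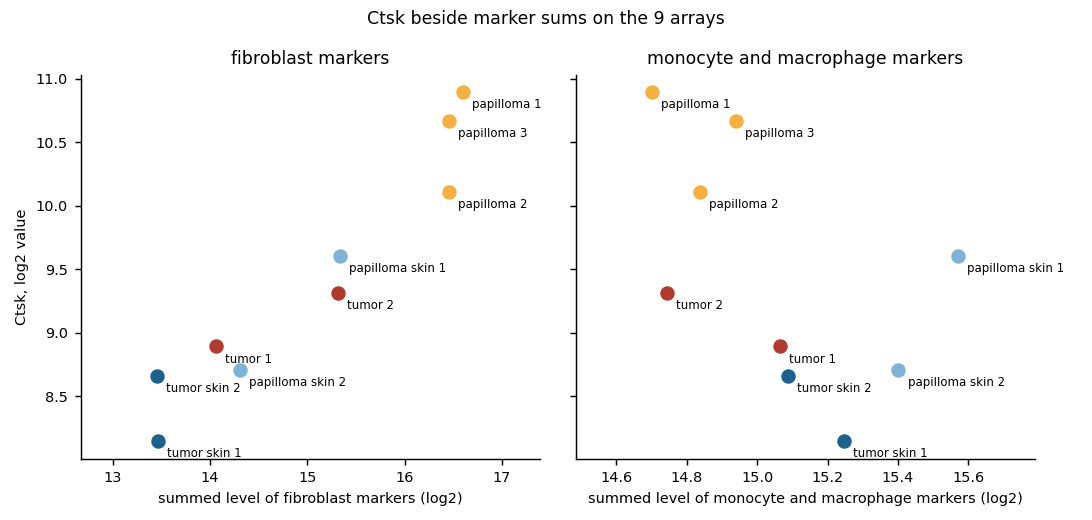
Log2 value of Ctsk on each array against the summed level of fibroblast markers and of monocyte and macrophage markers. Papilloma 1 had the highest Ctsk value (10.90) and the highest fibroblast sum (16.60), together with the lowest monocyte and macrophage sum (14.70).

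Ctse, an aspartic protease of endosomes, read 11.28 and 11.41 in papilloma skin, 11.81 and 11.58 in tumor skin, 10.03, 10.35 and 10.26 in papilloma, and 10.67 and 10.38 in tumor. The lesion arrays were all lower than the skin arrays, the reverse of Acp5. Ctse fell by 1.13 in papilloma (SE 0.16; 2.195-fold; adjusted p in limma 0.00628), with −1.25 and −1.06 within slides, although the sign turned to 0.24 when the scanner files were scaled to the 75th percentile. That scaling moved the median of all papilloma differences to 0.66, and Ctse stood 0.42 below it. It fell by 1.17 in tumor (SE 0.18; 2.25-fold; adjusted p in limma 0.00808), with −1.14 within the first slide. From 7 columns limma called the tumor difference (−1.32, adjusted p = 0.0383) and not that of papilloma (−1.20, adjusted p = 0.0507). With the slide term limma called neither (−1.11, adjusted p = 0.0620, and −1.21, adjusted p = 0.0977). From the scanner files after ComBat the values were −0.11 (adjusted p in limma 0.842) and −1.56 (adjusted p in limma 0.161). Over all settings the limma adjusted p ran from 0.00369 to 0.958 and from 0.00176 to 1.00, the calls held under 16 of 25 each, and the tumor call ended without tumor 2 (−1.03).

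Ctsh, an aminopeptidase, read 13.38 and 12.82 in papilloma skin, 12.46 and 12.84 in tumor skin, 12.27, 11.80 and 12.45 in papilloma, and 11.16 and 11.31 in tumor. The tumor arrays were the lowest and did not overlap with any other group, and the papilloma arrays lay below the papilloma skin arrays. Ctsh fell by 1.41 in tumor (SE 0.27; 2.65-fold; adjusted p in limma 0.0176), with −1.29 within the first slide. The papilloma difference was −0.93 (SE 0.24; adjusted p in limma 0.0670), with −1.11 and −1.02 within slides, and at 0.66 it was level with the median of all probes when the scanner files were scaled to the 75th percentile. The tumor difference was −1.33 from 7 columns (adjusted p in limma 0.0785) and −1.11 with the slide term (adjusted p in limma 0.120). Over all settings its limma adjusted p ran from 0.00599 to 1.00. The call held under 13 of 25 and ended without tumor skin 2, tumor 1 or tumor 2 (−1.22, −1.33 and −1.48).

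Ctsc, which activates the granule serine proteases, read on probe A_52_P195839 11.79 and 10.78 in papilloma skin, 9.89 and 10.65 in tumor skin, 9.94, 9.08 and 10.13 in papilloma, and 9.92 and 9.73 in tumor. Papilloma skin lay above all other arrays, and tumor overlapped with tumor skin. The papilloma difference was −1.57 (SE 0.40; adjusted p in limma 0.0583), with −1.86 and −1.70 within slides, and on probe A_55_P2072005 −1.43 (SE 0.36; adjusted p in limma 0.0548), with −1.44 and −1.47. With the slide term the first probe passed in limma (−1.84, adjusted p = 0.0290), and so did the median over both probes without it (−1.499, adjusted p = 0.0467). From 7 columns the differences were −1.06 and −1.05 (adjusted p in limma 0.331 and 0.303). From the scanner files after ComBat they were −0.09 and −0.27, or 0.56 and 0.74 below the median of all probes. Scaled to the 75th percentile the first probe was positive at 0.29, which was 0.37 below that median. Over all settings the limma adjusted p of the first probe ran from 0.0227 to 0.961 and of the second from 0.0301 to 0.971. In tumor versus tumor skin the values were −0.44 and −0.58 (adjusted p in limma 0.566 and 0.386).

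Ctsd, the main aspartic protease of lysosomes, read on probe A_51_P384629 from 15.51 in papilloma skin 1 to 15.93 in papilloma 1. Its differences were 0.25 in papilloma (adjusted p in limma 0.346, 95% interval −0.06 to 0.55) and −0.10 in tumor (adjusted p in limma 0.697, 95% interval −0.44 to 0.23). The other Ctsd probe, A_65_P13209, whose target spans 1659 bases of the mm9 genome, ran from 10.46 in tumor skin 2 to 12.10 in papilloma 2. Its SD was larger than that of the first probe in tumor skin, papilloma and tumor and smaller in papilloma skin. Its differences were 0.08 in papilloma (adjusted p in limma 0.940) and 0.63 in tumor (adjusted p in limma 0.398). The tumor value moved to −0.02 without tumor skin 2 and to 1.29 without tumor skin 1. Ctss, an endopeptidase that cuts the invariant chain of class II molecules, ran from 13.19 in tumor 2 to 14.14 in papilloma skin 1, with overlap between lesion and skin at both stages. Its differences were −0.44 in papilloma (adjusted p in limma 0.248) and −0.17 in tumor (adjusted p in limma 0.655).

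**Figure D3:**
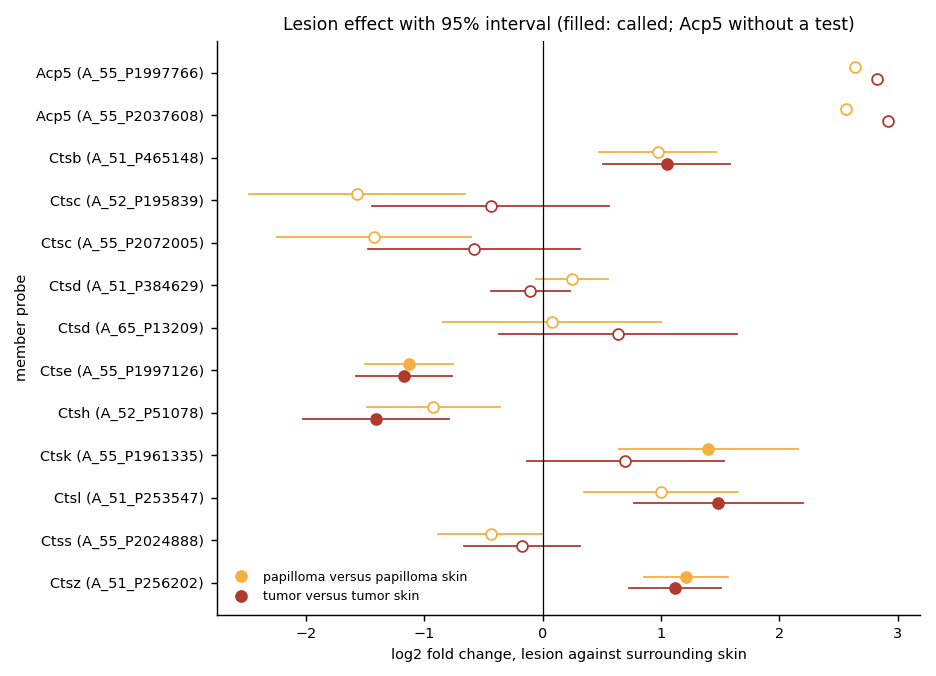
Log2 fold change of each member probe at the papilloma stage and at the tumor stage, each lesion against its skin, with the 95% interval for the cathepsins and filled points for called probes. Ctse was called lower (−1.13 and −1.17) and Ctsz higher (1.21 and 1.12) in both comparisons.

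The treatment of slides and columns moved several of these values. In the scanner files after ComBat the median of all probes itself was shifted by 0.47 in papilloma versus papilloma skin, against 0.01 in the value table, and by −0.07 against 0.05 at the tumor stage. On these values 3 cathepsin probes were called at the papilloma stage, all higher (Ctsb 1.47, Ctsl 2.11 and Ctsz 1.64), which left 1.00, 1.64 and 1.17 above that median. Over the array 3963 probes were called there, more than from the value table. At the tumor stage limma called 0 cathepsin probes and 122 probes in all, with 7 of the 11 at an unadjusted p under 0.05. Ctss had a positive value of 1.16 in papilloma on this basis (adjusted p in limma 0.122), opposite in sign to the value table. Leaving out papilloma skin 1 and tumor 1 from the scanner files left papilloma skin and tumor 1 array each, so no count of calls is given. In papilloma Ctsb, Ctsl, Ctsz and Ctsk were then at 1.34, 1.97, 1.34 and 2.08, and Ctse and Ctsh at −1.13 and −0.34. In tumor the same genes were at 1.15, 1.11, 0.67 and 0.81, and at −1.56 and −1.63.

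**Figure D4:**
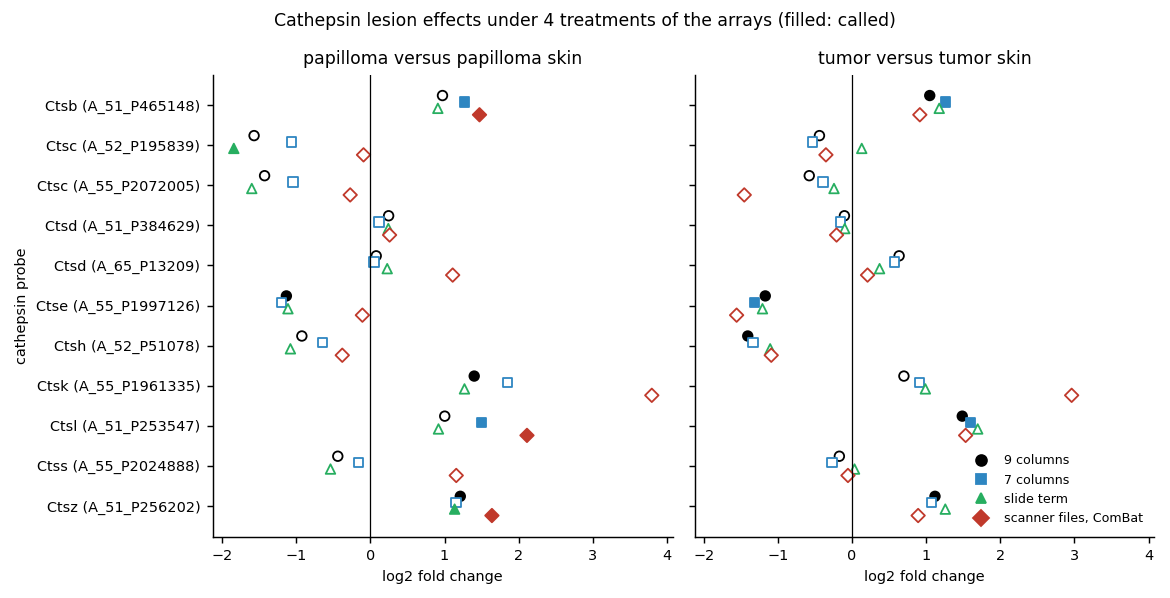
Log2 fold change of the 11 cathepsin probes from 9 columns, from 7 columns, with a slide term and from the scanner files after ComBat, filled where called. Ctsb, Ctsl, Ctsk and Ctsz stayed positive under these 4 treatments, while Ctss in papilloma turned from −0.44 to 1.16.

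In tumor versus papilloma limma called 0 of the 11 cathepsin probes (0.218% of all probes higher, 0.644% lower), and 3 had an unadjusted p under 0.05. Ctsk was lower in both tumor arrays than in any papilloma array, by 1.46 (SE 0.33; adjusted p in limma 0.120), with −2.01 and −0.80 within slides and −1.25 from 7 columns. The Ctsk sign turned in the scanner files, to 1.00 after ComBat, 0.93 with a slide term and 0.47 when scaled to the 75th percentile. Ctsh (−0.94, adjusted p in limma 0.162) and Ctsz (−0.76, adjusted p in limma 0.0901) were also below papilloma on both tumor arrays, with −0.86 and −0.81 from 7 columns. Ctsl overlapped between the lesions (0.00, adjusted p in limma 0.998). Acp5, whose comparison between lesions was not used to choose it, was lower in tumor by 0.78 and 0.60 (adjusted p in limma 0.0987 and 0.204), without overlap. Within slides its first probe differed by −0.97 and −0.78, from 7 columns the probes differed by −0.63 and −0.39, and from the scanner files after ComBat the sign turned (0.37 and 0.59). From these files without papilloma skin 1 and tumor 1, which left 1 tumor array, Ctsh was at −1.06 and Ctsk at −1.37.

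In tumor skin versus papilloma skin limma called 0 of the 11 (0.267% of all probes higher, 0.236% lower), and 2 had an unadjusted p under 0.05. Acp5 was lower in tumor skin by 0.97 and 0.95 (adjusted p in limma 0.0559 and 0.0630), and Ctsz by 0.67 (adjusted p in limma 0.0921), each without overlap. From 7 columns these values were −0.92, −0.93 and −0.72, with 1 papilloma skin array left. In the scanner files the median of all probes was shifted by 0.44 after ComBat and by 0.43 when scaled to the 75th percentile. Against it Ctsz was lower by 0.43 and 0.02, and Acp5 by 1.11 and 1.16 after ComBat and by 0.32 and 0.24 when scaled. From these files without papilloma skin 1 and tumor 1, the Acp5 values were −1.20 and −1.28, again with 1 papilloma skin array left. The interaction of lesion and stage gave 0 calls in limma (0.0242% of all probes higher, 0.0277% lower), and 0 cathepsin probes had an unadjusted p under 0.05. Ctsc had the highest value of this difference among the cathepsins (1.13, adjusted p in limma 0.421), and Ctsk was at −0.70 (adjusted p in limma 0.545). The Ctsc sign turned in the scanner files, to −0.26 after ComBat and −0.87 when scaled to the 75th percentile. The medians of all probes there were −0.60 and −0.77. The second Ctsc probe went from 0.85 to −1.18 after ComBat. In the scanner files without papilloma skin 1 and tumor 1, which left 1 papilloma skin array and 1 tumor array, Ctsh was at −1.29. The second Acp5 probe was at 1.20, given with no test since this interaction is built from the differences that chose Acp5.

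The inhibitors of cysteine cathepsins were read as a list of cystatin family genes, of which 10 of 13 had a mean log2 level of at least 6. Cstb, cystatin B of the cytosol, read 12.84 and 12.41 in papilloma skin, 12.39 and 12.40 in tumor skin, 14.64, 14.38 and 14.85 in papilloma, and 14.02 and 14.23 in tumor. It rose in papilloma by 1.996 (adjusted p in limma 0.00102) and in tumor by 1.73 (adjusted p in limma 0.00356), with all lesion arrays above all skin arrays. Cst7, cystatin F, an inhibitor of cathepsin C in immune cells, fell by 1.74 (adjusted p in limma 0.00414) and 1.69 (adjusted p in limma 0.00690). In all, 2 genes were called higher and 1 lower in papilloma, Gm5483 (1.12) being the other, and 1 higher and 1 lower in tumor. The list median was 0.89 in papilloma, against 0.01 over all probes, and 0.06 in tumor, against 0.05. In the scanner files after ComBat the list medians were 1.13 (0.66 above all probes) and −0.22. There 4 genes were called higher and 0 lower in papilloma, and 0 in tumor. With the slide term the medians were 0.95 and −0.05, and from 7 columns 0.73 and −0.20. In papilloma 1 gene was called in each direction both ways, and in tumor 1 in each direction from 7 columns and none with the slide term. In tumor skin versus papilloma skin the cystatins Stfa1 and Stfa3 were called higher and the list median was 1.12, against −0.06 over all probes, and limma called neither with the slide term (median 1.22), from 7 columns (0.92) or in the scanner files after ComBat (1.41).

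The proton pump that acidifies the lysosome had 18 genes at this level. In papilloma 5 were called higher and 0 lower by limma, with 9 of the 18 at an unadjusted p under 0.05 (7834 of the 28871 probes were): Atp6v0d2 (1.95), Atp6v1c1 (1.53), Atp6v0c (1.30), Atp6v1a (1.22) and Tcirg1 (1.19). In tumor 3 were called higher and 0 lower, with 10 at an unadjusted p under 0.05 in limma (9919 of all probes): Atp6v0d2 (1.22), Atp6v1a (1.10) and Atp6v1c1 (1.05). The gene with the lowest mean of both differences was Atp6v0a1 (0.48 and −0.92). The list median was 0.42 in papilloma and 0.39 in tumor, with 0.41 and 0.37 under the slide term and 0.32 and 0.36 from 7 columns. The called genes then numbered 4 higher in papilloma with the slide term, and 3 from 7 columns. In tumor, limma called 0 with the slide term, and 2 higher and 1 lower from 7 columns. After ComBat of the scanner files the medians were 1.15 (0.68 above all probes), with 10 called higher, and 0.22, with 0 called.

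Among 18 lysosomal membrane proteins, 2 were called higher in papilloma, the tetraspanin Cd63 (1.41) and the chloride exchanger Clcn7 (1.31), and 3 in tumor (Cd63 1.46, Clcn7 1.45 and the channel Mcoln1 1.16). The list medians were 0.45 and 0.34, with 0.46 and 0.39 under the slide term and 0.30 and 0.40 from 7 columns, and the sialic acid exporter Slc17a5 was lowest (−0.89 and −1.06). Of the membrane genes 1 was called in papilloma and none in tumor with the slide term, and from 7 columns 1 and 3. In the scanner files after ComBat their medians were 1.24 (0.77 above all probes), with 7 called higher, and 0.36, with 0 called. Of 31 acid hydrolases, 3 were called higher and 1 lower in papilloma, and 3 higher and 2 lower in tumor. The mannosidase Man2b1 (−1.06 and −1.35) was called lower at both stages. The medians of the hydrolases were −0.26 and −0.20, and −0.32 and −0.14 under the slide term. From 7 columns they were −0.27 and −0.24, with 3 genes called higher and 1 lower in papilloma and 2 in each direction in tumor. In papilloma 2 were called higher with the slide term, and none of the calls in tumor, nor either Man2b1 call, held. The papilloma median turned to 0.74 in the scanner files after ComBat, above the shift of 0.47 over all probes.

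Other lysosomal proteases, 12 of 19 at this level, had 2 genes called lower in papilloma, Ctsw (−2.54) and the granule protease Ctsg (−2.23). In tumor 1 was called higher (Dpp7 1.20) and 1 lower (Ctsw −2.06). The medians were −0.45 and −0.09, −0.44 and 0.06 under the slide term, and −0.27 and −0.21 from 7 columns. All 4 calls ended from 7 columns, and with the slide term 1 lower call was left in papilloma. In papilloma the median was 0.33, with 3 called higher, in the scanner files after ComBat, and 0.14 below that of all probes. Of 13 genes of lysosomal sorting and the TFEB family, which drives lysosomal genes, the mannose-6-phosphate receptors M6pr (1.20) and Igf2r (1.504) were called higher in papilloma. In tumor Igf2r (1.58) and Mitf (1.53) were called higher and Tfeb itself lower (−1.14), and the sorting receptor Sort1 was lowest by the mean of both stages (−0.90 and −0.99). Medians were −0.08 and 0.06, −0.11 and 0.16 under the slide term, and −0.06 and 0.03 from 7 columns. At each stage 1 gene was called higher with the slide term, and from 7 columns 1 higher in papilloma and 1 in each direction in tumor. The papilloma median turned to 0.70 and that of tumor to −0.45 from the scanner files after ComBat.

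Of the proteases that cathepsin C activates, 8 of 9 were at this level. In papilloma Ctsg (−2.23) and Prtn3 (−1.35) were called lower, and in tumor Gzmb (1.33) was called higher, with list medians of 0.04 and 0.07 (0.13 and −0.21 under the slide term, 0.14 and 0.22 from 7 columns). All 3 calls ended with the slide term, and from 7 columns the Gzmb call was kept and those in papilloma ended. The medians of this list were 0.77 and −0.49 in the scanner files after ComBat, with 0 called. Of 8 genes of class II antigen processing, where Ctss and Ctsl act, the transactivator Ciita (−1.04) was called lower in papilloma. In tumor Cd74, the invariant chain (−2.47), H2-DMb1 (−2.19) and Ciita (−1.28) were called lower. All 4 class II calls ended with the slide term, and from 7 columns 1 was left at each stage. The class II medians were −0.80 and −1.60, or −0.95 and −1.24 with the slide term, −0.25 and −1.74 from 7 columns, and 0.84 and −1.27 from the scanner files after ComBat, where the papilloma sign turned, also against the median of all probes.

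**Figure D5:**
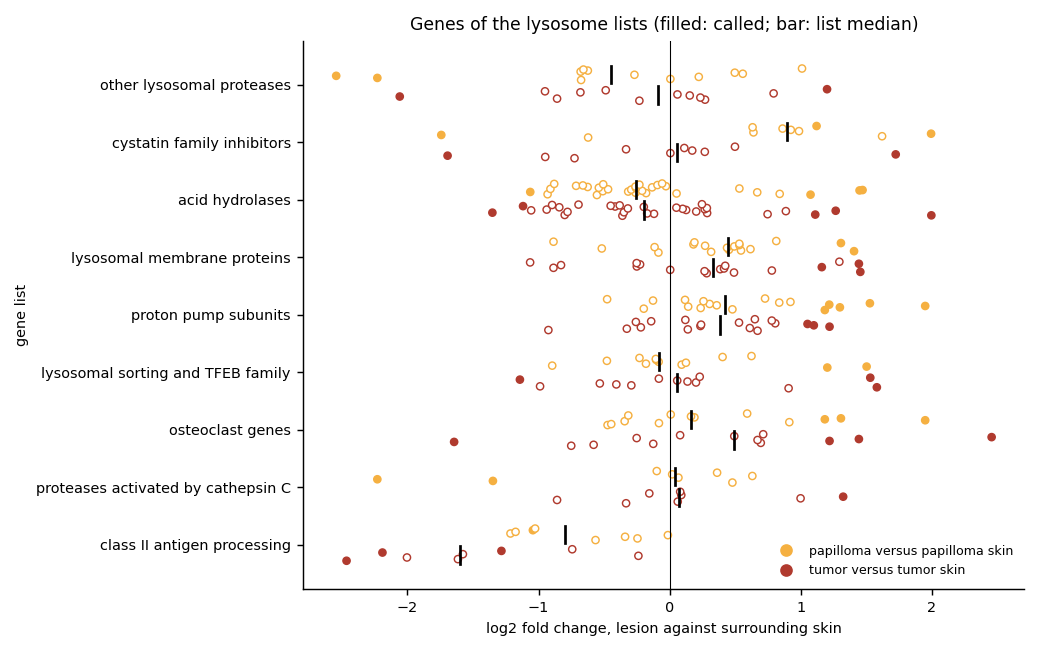
Log2 fold change of each gene of the lysosome lists at both stages, filled where called, with the list median as a bar. Medians were positive for pump subunits (0.42 and 0.39) and membrane proteins (0.45 and 0.34) and negative for class II processing (−0.80 and −1.60).

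Since Acp5 and Ctsk are best known from osteoclasts, 15 other osteoclast genes were read, 13 of them at this level. In papilloma Atp6v0d2, Clcn7 and Tcirg1 were called higher, and in tumor Atp6v0d2, Clcn7 and the carbonic anhydrase Car2 (2.46) were called higher and the integrin Itgb3 (−1.64) lower. The pump and chloride genes are shared with the lists above. The receptor Tnfrsf11a (−0.47 and −0.75) and the factor Nfatc1 (−0.44 and −0.58) were not called in either lesion. Calcr was well above background on 4 arrays. The medians were 0.16 and 0.49, with 0.13 and 0.34 under the slide term and 0.23 and 0.35 from 7 columns. The calls were 1 in papilloma and none in tumor with the slide term, and from 7 columns none in papilloma, and 2 higher and 1 lower in tumor. After ComBat of the scanner files the medians were 1.61, with 6 called higher, and 0.01.

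Markers of other cells that could carry Acp5 and cathepsin transcripts, and that the Gr-1bright sort was meant to remove, were read on the same arrays. The summed level of 12 monocyte and macrophage markers was 15.57 and 15.40 in papilloma skin, 15.25 and 15.09 in tumor skin, 14.70, 14.84 and 14.94 in papilloma, and 15.06 and 14.74 in tumor. Every lesion array thus lay below every skin array for these markers, narrowly so for tumor 1 (15.06) against tumor skin 2 (15.09). The part of monocyte and macrophage RNA in the member values was not tested. Csf1r was the most abundant, Adgre1 was called lower at both stages (−3.09 and −2.04), and Cd163 was well above background on 4 arrays. The medians of this list were −0.59 and −0.45, with −0.93 and −0.16 under the slide term and −0.48 and −0.46 from 7 columns. After ComBat of the scanner files the papilloma median was 0.05, with 3 genes called higher, which was 0.42 below the median of all probes in that setting, and the tumor median was −0.87.

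The 14 keratinocyte markers summed to 13.92 and 13.51 in papilloma skin, 13.35 and 14.31 in tumor skin, 15.57, 14.61 and 14.36 in papilloma, and 14.69 and 16.29 in tumor. All lesion arrays were above all skin arrays, with Krt5 the most abundant, 3 genes called higher in papilloma and 4 in tumor (3 and 1 with the slide term), and Ivl well above background on 5 arrays. Among 7 endothelial markers Kdr was the most abundant. Their sums were 13.16 and 12.86, 13.18 and 14.03, 13.88, 13.20 and 13.51, and 12.55 and 12.91 in the same order of groups. The papilloma sums lay above those of papilloma skin, and the tumor sums below those of tumor skin. Of 6 genes at this level, 4 were called higher in papilloma and, opposite to the sums, 2 in tumor. These calls all ended with the slide term. The medians of the keratinocyte list were 0.84 and 1.15, or 1.44 and 2.19 from 7 columns. In the scanner files after ComBat they were 1.84 and 1.502, with 6 and 0 called. Those of the endothelial list, 1.65 and 0.99, were 3.98 and 1.94, with 3 and 2 called. Cdh5, Tek and Emcn of this list were each well above background on 7 arrays. Dendritic cell markers, with Itgax the most abundant, had 1 gene called higher in papilloma (Itgax 1.87). Their sums were 12.75 and 13.28 in papilloma skin, 13.16 and 13.16 in tumor skin, 14.61, 14.81 and 14.505 in papilloma, and 13.998 and 13.73 in tumor, which is above the skin arrays in both lesions. In tumor, however, 3 of 8 genes of the list were positive and the median was −0.22, against 0.59 in papilloma. In the scanner files after ComBat the medians were 0.12 in tumor and 1.25 in papilloma. With the slide term the papilloma median was 0.25, with 1 gene called higher and 1 lower. The part of these cells in the member values was not tested.

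The defining neutrophil markers were present, all 12 well above background on all arrays, with S100a9 the most abundant. Their sum was 20.01 and 20.03 in papilloma skin, 20.28 and 20.27 in tumor skin, 19.72, 19.69 and 19.71 in papilloma, and 19.91 and 19.86 in tumor, so the groups stood in the reverse of the order of Acp5 and Ctsz. Of the 12, 4 were called lower in papilloma and 6 in tumor, among them the granule genes Ngp, Camp, Ltf and Mmp8 at both stages. The slide term left 3 and 2 of the 12 called lower, and 7 columns gave 4 and 7. Of all probes 1.93% and 2.91% were called lower at the 2 stages. Eosinophil markers, with Siglec5 the most abundant, had 5 of 7 called lower at both stages and 1 higher in tumor, and their sums were 14.20 and 13.84 in papilloma skin, 13.35 and 13.33 in tumor skin, 12.00, 12.34 and 12.36 in papilloma, and 13.16 and 12.97 in tumor. They were lower in lesions, as Ctse was. The paper excluded contamination by eosinophils, since it did not find Epx expressed. The part of either list in the member values was not tested. Of the T cell markers, limma called 0 of 7 in papilloma, with 3 at an unadjusted p under 0.05, and 1 lower in tumor. Of 5 mast cell markers limma called 0 at both stages, with 0 and 1 at an unadjusted p under 0.05.

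Pearson's r with Acp5 probe A_55_P2037608 over the 9 arrays, which share slides and the lesion and skin groups, ranked the 4430 genes with a mean log2 level of 6 or more and an SD of 0.5 or more, which left out Ctsd and Ctss. The first 5 were Ccnf (cyclin F, 0.995), Arid5b (0.995), Dgkz (a diacylglycerol kinase, 0.993), Csf1 (the macrophage growth factor, 0.992) and Stk38l (a kinase, 0.991). Of these, 1 was among the first 5 by Spearman's rho and 0 from 7 columns, where their ranks were 8, 6, 20, 19 and 7. Among the members, Ctsb (r = 0.945, rank 229), Ctsz (0.936, rank 283), Ctsl (0.899, rank 544) and Ctsk (0.793, rank 1143) had positive values, and Ctsc (−0.582, rank 3498), Ctsh (−0.622, rank 3568) and Ctse (−0.986, rank 4420) negative ones.

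Promoter windows of RefSeq (GRCm38.p6) were found by symbol for 7 of the 10 members, in 9 windows, and none was listed for Ctsb, Ctse and Ctsh. The 250 bases before each start were searched for CACGTG, the core of the element bound by TFEB and its relatives, which reads the same on both strands. It was in 2 of the 9 windows, those of Ctsd and Ctsl, and in 1978 of 32851 windows of that length (6.02%). The windows with a match are shown with the outermost of 3 Acp5 windows, since Acp5 and Ctsl were high together in lesions and Ctsd was called in neither. They are Acp5 at chr9:22135747-22135996, Ctsl at chr13:64370521-64370770 and Ctsd at chr7:142387828-142388077, all on the minus strand and written 5′ to 3′ with the match in capitals.
Acp5: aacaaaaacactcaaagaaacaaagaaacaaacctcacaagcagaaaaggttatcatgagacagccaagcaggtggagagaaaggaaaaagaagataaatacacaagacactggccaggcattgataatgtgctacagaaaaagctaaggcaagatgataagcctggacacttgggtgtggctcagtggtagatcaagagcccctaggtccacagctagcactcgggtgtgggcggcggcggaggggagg
Ctsl: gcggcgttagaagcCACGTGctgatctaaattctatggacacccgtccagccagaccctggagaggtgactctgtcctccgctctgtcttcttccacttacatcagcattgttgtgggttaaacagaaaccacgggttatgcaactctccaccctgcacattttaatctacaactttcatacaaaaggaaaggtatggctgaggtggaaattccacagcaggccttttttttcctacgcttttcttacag
Ctsd: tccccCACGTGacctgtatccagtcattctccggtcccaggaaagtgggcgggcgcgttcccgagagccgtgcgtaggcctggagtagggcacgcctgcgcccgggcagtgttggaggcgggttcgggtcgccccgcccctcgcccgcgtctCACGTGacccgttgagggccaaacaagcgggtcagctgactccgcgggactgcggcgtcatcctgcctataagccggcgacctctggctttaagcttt
The match began 236 bases before the start in Ctsl, and 245 and 98 bases before it in Ctsd. The Acp5, Ctsz and Ctsk windows held no match. A match is a description of letters and not of a bound site.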

How the data were processed

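Neutrophils of 4 groups were measured on 9 one-color Agilent SurePrint G3 mouse arrays. The authors deposited 1 scanner file an array, in which each spot has a fluorescence intensity, background-subtracted by Feature Extraction per the file headers and not scaled between arrays. In the deposited values there is 1 log2 value for each of 55681 probes and each array, with column medians of 6.08 to 6.12. Per the paper, limma was used for quantile normalization and ComBat against the chip effect, and which of these steps the table holds was unknown here. In the scanner files, 59305 spots an array were not controls and 0 of them were saturated.

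Members were found by gene name in the scanner files and read by probe from the table. Arrays were the replicates, grouped by their labels. The table was fitted with limma 3.58.1 in R 4.3.3 on 4 group means with eBayes, and p was adjusted by Benjamini-Hochberg over all probes. A list gene was read by its probe with the highest mean level. The scanner files were log2 transformed, quantile normalized and corrected for slide by a ComBat implementation written here and checked on simulated data. Further alternatives were the slide or the replicate number as a term, array weights, normexp with an offset of 50.0, other scaling and filters, 7 columns, and each array left out in turn. Of these, 3 were chosen after seeing the data: the scanner files without papilloma skin 1 and tumor 1, differences within the second slide, and a crossing of the tumor skin numbers. The members and lists were chosen with earlier results of these data known. Protein sequences were not used here. Some single genes of the lists are not reported here. Tables were read with data.table (1.17.8), Python 3.11.15, pandas 2.3.3 and numpy 2.4.6 and drawn with matplotlib 3.10.9.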

Additional observations from a re-analysis of the deposited data

How the results depend on the processing

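The number of cathepsin probes called by limma, 3 of 11 at the papilloma stage and 5 of 11 at the tumor stage, moved with the settings. From the scanner files it was 0 and 0 with no slide correction, with a slide term, with scaling to the 75th percentile and from the 6 arrays of highest spike-in slope, where 4, 4, 4 and 4 probes at the papilloma stage and 1, 0, 0 and 3 at the tumor stage had an unadjusted p under 0.05. In these settings limma called 0 probes over the whole array. At the tumor stage it was 0 after ComBat and 1 after normexp and ComBat. An alternative chosen after seeing the data used the scanner files without papilloma skin 1 and tumor 1. It left papilloma skin and tumor 1 array each, so no count is given for it. In the value table the tumor-stage count was 0 with the slide term.

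With the replicate number as a block limma called 0 and 0, with 8 and 5 at an unadjusted p under 0.05 and 552 and 737 calls over all probes. Paired columns were correlated about their group means. Between each lesion and its skin the values were positive, 0.16 and 0.53 for papilloma and 0.39 for tumor. They were negative between the skins (−0.14) and between the lesions (−0.47 and −0.26). Where both groups held 2 arrays, both numbers give the same value. These values do not exclude a pairing of lesion and skin. The labels name no animal, litter or day behind a number, so the main fit did not pair the arrays. Arrays numbered 1 all lay on the first slide. With the tumor skin numbers crossed, also chosen after seeing the data, the count was 3 and 3, with 1170 and 1693 probes called over the array. Leaving out 1 array at a time gave 2 to 5 at the papilloma stage and 0 to 5 at the tumor stage, 0 without tumor 2 (5 at an unadjusted p under 0.05 in limma) and 2 without tumor 1 or tumor skin 2. The lone array of a group was then assumed to vary like the others. Without tumor 2, tumor 1 or tumor skin 2 fewer probes were also called over the array at the tumor stage than from all arrays. Ctse in papilloma turned to 0.24 under scaling to the 75th percentile, 0.42 below the median of all probes there.

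Of the first 5 genes like Acp5, 1 was among the first 5 by Spearman's rho and 0 from 7 columns. Over single probes and contrasts, with the counts of called probes left out, 1327 values kept direction and call or moved by under the spread. Of the others 209 moved, 88 lost the call, 26 gained it and 1 reversed, that of Ctse in papilloma. A change of sign with no call in either fit was counted among the 209 and not as reversed. No tumor-stage difference lies within the second slide, and the protein features planned were not run.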
